A study of Mus musculus with 12 samples.

Results

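The RNA of 9 ligand-responsive and metabolic transcription factors was followed in mouse duodenum: Nr1i2, Nr1i3, Rxra, Hnf4a, Hnf4g, Ppara, Ppard, Ahr and Nr5a2. The set was drawn up by symbol, with earlier results of these data known but with no threshold on a measured value, and all 9 were found among the 26121 genes present in both deposited count tables. RNA from C57BL/6N mice had been sequenced in 12 libraries, in 4 groups of 3. Mice were 6 weeks old at the start and spent 18 weeks on their diet. The Chow group ate regular chow and received no treatment, and the HFD group ate a high-fat diet and received no treatment. The HFD Vehicle group was on the same high-fat diet and was injected intraperitoneally with 30% DMSO in corn oil once a day for 4 days. The HFD PCN group was on the high-fat diet and received PCN (pregnenolone 16α-carbonitrile), which activates the pregnane X receptor of rodents, at 50 mg/kg by the same route and schedule. Injection itself was not given to Chow or HFD mice, and no chow-fed mice were injected. The labels give each library a number but do not state that each came from a separate animal, so that the p-values may measure only the spread between these samples.

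Nuclear receptors are transcription factors switched by small lipophilic ligands, and much of their activity is set by ligand, coregulators and localisation after the RNA has been translated. PXR (Nr1i2) and CAR (Nr1i3) bind DNA as heterodimers with RXRα (Rxra) and turn on oxidation, conjugation and export genes in liver and gut. HNF4α (Hnf4a) and HNF4γ (Hnf4g) bind as dimers and maintain absorptive enterocyte genes, PPARα (Ppara) and PPARδ (Ppard) respond to fatty acids, and LRH-1 (Nr5a2) binds as a monomer and acts in the intestinal epithelium. The aryl hydrocarbon receptor (Ahr) is not a nuclear receptor by structure, being a basic helix-loop-helix protein, but serves as a sensor of planar aromatic compounds. The question put to the counts was whether the RNA of these sensors moves when the RNA of their target genes moves.

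RXR heterodimers bind pairs of the hexamer AGGTCA and close variants such as AGTTCA. Stretches of 250 bases upstream of annotated starts are shown for 4 genes, credited to RefSeq on GRCm38.p6. Rxra and Nr1i2 stand for the dimer whose RNA is described here, and Cyp3a11 and Cyp2c29 for 2 targets of it. The second Rxra start and both targets are shown because their windows hold a hexamer, which many others do not. Capitals mark AGGTCA or AGTTCA on either strand (reverse complements TGACCT and TGAACT), and each sequence is read 5′ to 3′ on the strand of its gene.
Nr1i2, chr16:38294825-38295074, minus strand: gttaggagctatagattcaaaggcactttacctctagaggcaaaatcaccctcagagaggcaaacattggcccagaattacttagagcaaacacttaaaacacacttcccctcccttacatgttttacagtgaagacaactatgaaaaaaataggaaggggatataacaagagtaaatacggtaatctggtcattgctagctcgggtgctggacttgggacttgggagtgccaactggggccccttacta
Rxra, its downstream start, chr2:27709042-27709291, plus strand: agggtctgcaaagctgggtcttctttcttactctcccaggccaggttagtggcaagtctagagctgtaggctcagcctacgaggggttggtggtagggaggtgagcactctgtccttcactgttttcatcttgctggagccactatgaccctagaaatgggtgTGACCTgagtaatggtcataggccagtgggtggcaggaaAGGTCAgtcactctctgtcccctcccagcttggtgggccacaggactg
Cyp3a11, chr5:145879855-145880104, minus strand: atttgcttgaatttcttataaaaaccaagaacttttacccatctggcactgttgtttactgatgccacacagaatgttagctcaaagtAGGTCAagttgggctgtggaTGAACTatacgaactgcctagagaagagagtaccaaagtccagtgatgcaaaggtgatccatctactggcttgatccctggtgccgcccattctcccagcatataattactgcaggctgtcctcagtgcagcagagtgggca
Cyp2c29, chr19:39286835-39287084, plus strand: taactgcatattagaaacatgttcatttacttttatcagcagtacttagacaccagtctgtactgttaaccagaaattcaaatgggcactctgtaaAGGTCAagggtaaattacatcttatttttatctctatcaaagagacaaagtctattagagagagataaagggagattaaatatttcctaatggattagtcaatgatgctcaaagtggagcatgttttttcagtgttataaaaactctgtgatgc

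The Nr1i2 window holds neither hexamer. The Rxra window has AGGTCA with its first base 48 bases before the start and, on the other strand, at 87 bases before it. Cyp3a11 has AGGTCA at 162 bases and AGTTCA, on the other strand, at 142 bases before its start, and Cyp2c29 has AGGTCA at 154 bases. RefSeq windows were found for 7 of the 9 receptors, the others being Hnf4g and Ahr. The 7 have 10 windows, of which 2 hold a hexamer, the second being that of the outer Nr5a2 start (AGGTCA at 64 bases). The window of the first Rxra start holds none. Of 16 windows of 15 target genes of these receptors, 7 (43.8%) hold a hexamer. Ces2a and Abcb1a are among them, and Cyp2c55, Cyp2c66, Gstm1, Ephx1 and Cyp2b10 are not. Among 32851 windows of the same length 24.2% hold AGGTCA or AGTTCA. The core of the AHR response element, GCGTG, was searched on both strands as well: 28.2% of the windows hold it, among them those of Cyp1a1 at 54 bases and Tiparp at 170 bases before the start. It also stands in windows of Cyp2b10, Gstm1, Pdk4, Nr0b2, Ppara, Ppard and Nr5a2, none of them a listed AHR target. Such matches describe the letters in a window and were not tested for binding.

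The libraries held 4676718 to 20684369 counts, with a median of 15404357. CPM values of single libraries are counts per 1000000 counts of a library, scaled with TMM factors over all 12 libraries. The extraction protocol mentions liver, whereas the tissue label reads duodenum. Vil1, the microvillus protein villin, stood at 1160 to 2349 CPM and Epcam, an epithelial adhesion molecule, at 416 to 942 CPM. Alb, which hepatocytes secrete as albumin, had between 0.106 and 1.15 CPM. The 7 hepatocyte markers present in both tables summed to 1.94 to 5.29 CPM. Libraries within groups were uneven. Mitochondrially encoded RNA took 36.7% of counts in HFD Vehicle 23 and 12.2% to 23.4% elsewhere. The 11 enterocyte markers, none of them at 0 in any group, summed to 19076 to 21616 CPM in Chow and 24982 to 26229 CPM in HFD PCN. They reached only 15224 CPM in HFD 4 and 9596 CPM in HFD Vehicle 23, against 22361 and 24655 CPM in the other HFD libraries and 20721 and 22647 CPM in the other HFD Vehicle libraries. T and NK cell markers (12 of 12 in both tables) summed to 130 to 224 CPM in Chow, 38.3 to 101 in HFD, 17.2 to 90.1 in HFD Vehicle and 79.2 to 123 in HFD PCN. The 11 pancreatic acinar markers summed to 49.5 to 134 CPM in Chow, 4.46 to 25.5 in HFD, 11.4 to 83.4 in HFD Vehicle and 2.40 to 19.9 in HFD PCN. The 10 smooth muscle and fibroblast markers summed to 833 to 860 CPM in Chow, 696 to 1698 in HFD, 763 to 1389 in HFD Vehicle and 653 to 760 in HFD PCN. The 11 crypt, Paneth and goblet markers summed to 2425 to 3077 CPM in Chow, 2336 to 3039 in HFD, 2728 to 4673 in HFD Vehicle and 2060 to 2700 in HFD PCN. The 4 heat shock genes in both tables summed to 1129 to 5853 CPM in HFD Vehicle and 674 to 2291 CPM in the other groups. In whole tissue, fewer cells of a type and less RNA per cell cannot be told apart, and the part of these differences in the results was not tested.

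All 9 receptors were well counted, from 129 reads (Ahr in HFD 4) to 13291 reads (Hnf4g in HFD PCN 5), and all passed the filter on low counts in every comparison. Compared per kb of exon, the mean level over the 12 libraries was highest for Hnf4g, at 175 CPM per kb, followed by Hnf4a at 93.3 and Nr1i2 at 65.4 CPM per kb. Rxra (25.9 CPM per kb), Ppara (23.7), Nr1i3 (16.3) and Ppard (13.4) formed a middle range. Nr5a2 (7.20) and Ahr (6.08 CPM per kb) were lowest. The lower positions depend on the length used. With the longest principal transcript in place of all exons joined, a choice made after seeing the data, Nr1i3 moved to 50.8, Ppard to 30.7 and Nr5a2 to 22.9 CPM per kb, while Hnf4g, Hnf4a and Nr1i2 kept the first 3 places.

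**Figure D1:**
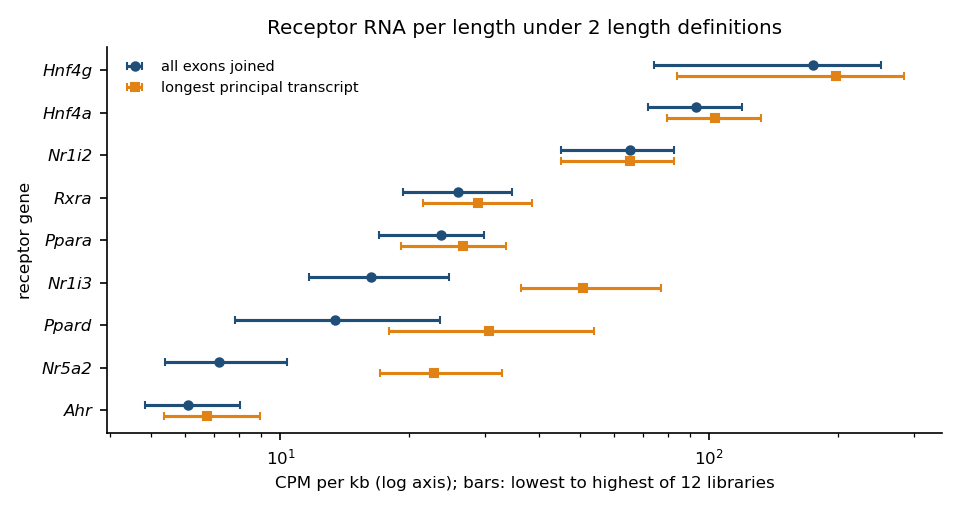
Mean RNA level of each receptor gene (y axis) in CPM per kb on a log x axis, with bars from the lowest to the highest of the 12 libraries, for 2 definitions of gene length. Hnf4g is highest under both, at 175 CPM per kb of all exons, and Nr1i3, Ppard and Nr5a2 are the genes whose place depends most on the length.

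Nr1i2 (ENSMUSG00000022809, GRCm38 chr16:38248323-38294824, minus strand) encodes PXR, the receptor that PCN binds. Its RNA stood at 170, 115 and 158 CPM in Chow 8, 17 and 19, and at 158, 211 and 169 CPM in HFD 4, 30 and 38. It stood at 165, 171 and 152 CPM in HFD Vehicle 23, 50 and 55, and at 163, 202 and 168 CPM in HFD PCN 5, 11 and 27. The 4 groups overlapped, and the lowest and highest libraries, Chow 17 and HFD 30, differed 1.84-fold. The fold change was 1.23 in HFD against Chow (95% interval 0.915 to 1.65) and 1.09 in HFD PCN against HFD Vehicle (0.796 to 1.49).

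Nr1i3 (ENSMUSG00000005677, chr1:171213970-171220701, plus strand) encodes CAR, the constitutive androstane receptor. Its levels were 82.7, 51.6 and 65.8 CPM in Chow, 59.3, 109 and 74.7 CPM in HFD, 57.9, 53.1 and 75.5 CPM in HFD Vehicle and 70.1, 84.3 and 77.4 CPM in HFD PCN, in the library order given for Nr1i2. All groups overlapped, and HFD 30 was again the highest library. The fold change was 1.24 on the diet (0.855 to 1.78) and 1.24 under PCN (0.908 to 1.70). Of the 4414 exon bases of Nr1i3, 3304 (74.9%) are also exon of Tomm40l on the opposite strand. The strand setting of the counting is not given in the sources used here, so reads of the 2 genes may not be separable; Tomm40l itself received 1047 and 1199 counts in the 2 tables against 5630 and 5585 for Nr1i3. Within libraries 1.93 to 3.22 Nr1i2 reads were counted per Nr1i3 read.

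Rxra (ENSMUSG00000015846, chr2:27676440-27762957, plus strand), the shared partner of PXR, CAR and the PPARs, was the steadiest of the xenobiotic set in Chow, at 144, 138 and 133 CPM. It stood at 123, 189 and 149 CPM in HFD, 105, 146 and 137 CPM in HFD Vehicle and 139, 143 and 153 CPM in HFD PCN. The groups overlapped, with HFD Vehicle 23 lowest and HFD 30 highest. Its fold change was 1.12 on the diet (0.856 to 1.48) and 1.12 under PCN (0.814 to 1.54). Rxrb, a second RXR gene, had 9.45 to 21.0 CPM per library and log2 fold changes of 0.42 (SE 0.22, edgeR adjusted p = 0.513) on the diet and -0.53 (SE 0.25, adjusted p = 0.3) under PCN.

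Ahr (ENSMUSG00000019256, chr12:35497974-35535038, minus strand) had the lowest counts. Its levels were 32.6, 43.0 and 32.2 CPM in Chow, 29.8, 36.4 and 40.7 CPM in HFD, 33.5, 41.3 and 33.4 CPM in HFD Vehicle and 49.7, 41.0 and 36.3 CPM in HFD PCN. HFD PCN 5 was the highest library, and the other HFD PCN libraries lay within the range of HFD Vehicle. The fold change was 1.01 on the diet (0.773 to 1.32) and 1.17 under PCN (0.844 to 1.62).

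**Figure D2:**
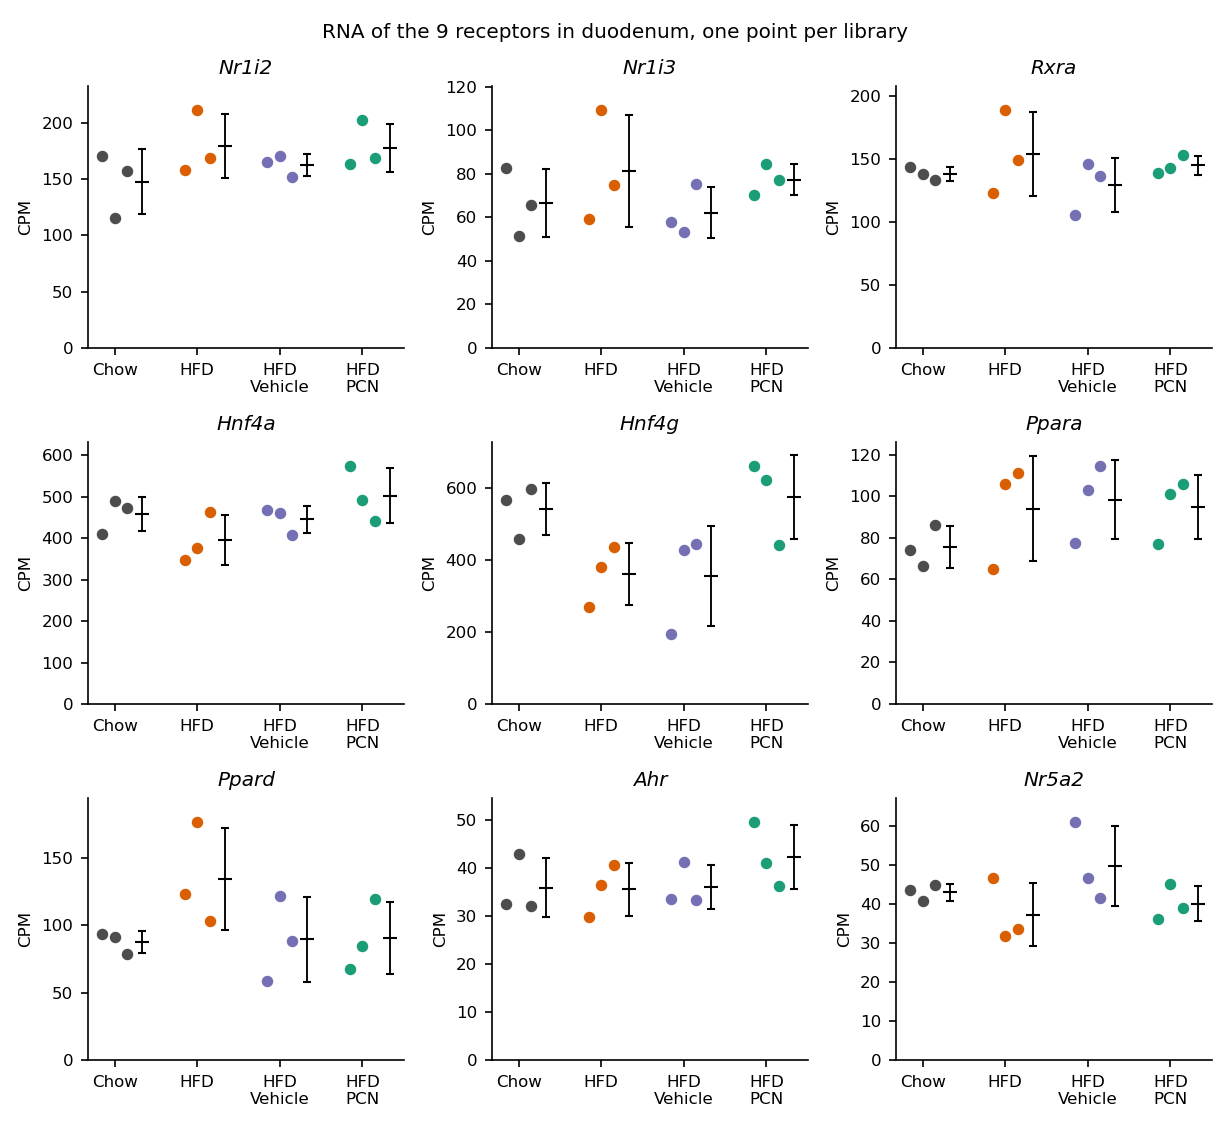
CPM of the 9 receptors (y axes from 0) in the 4 groups of 3 libraries; each point is a library and the black marks give mean ± SD. Hnf4g shows Chow and HFD apart, at 460 to 597 against 269 to 436 CPM, and most other panels show overlapping groups.

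Hnf4a (ENSMUSG00000017950, chr2:163506808-163572910, plus strand) stood at 411, 489 and 473 CPM in Chow, 347, 376 and 464 CPM in HFD, 468, 461 and 408 CPM in HFD Vehicle and 574, 491 and 442 CPM in HFD PCN. Neighbouring groups overlapped in the order HFD PCN, Chow, HFD Vehicle, HFD. The antisense gene Hnf4aos shares no exon bases with it and received 308 and 298 counts against 30927 and 40331 for Hnf4a. The fold change of Hnf4a was 0.873 on the diet (0.656 to 1.16) and 1.12 under PCN (0.781 to 1.62).

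Hnf4g (ENSMUSG00000017688, chr3:3508030-3658052, plus strand), the paralog enriched in gut, had the largest absolute fold change of the 9 under PCN and, after Ppard, on the diet. It stood at 569, 460 and 597 CPM in Chow (mean 542 ± 72.5, SD, n = 3) and 269, 381 and 436 CPM in HFD (362 ± 85.1, n = 3). The HFD Vehicle libraries stood at 195, 428 and 444 CPM (356 ± 139, n = 3) and the HFD PCN libraries at 663, 622 and 443 CPM (576 ± 117, n = 3). Every Chow library was above every HFD library, and the HFD PCN libraries were above those of HFD. The lowest HFD PCN library and the highest HFD Vehicle library lay at 443.4 and 444.3 CPM, an overlap that disappears when only those 6 libraries are scaled together. The log2 fold change was -0.57 on the diet (SE 0.22, 95% interval -1.05 to -0.09, edgeR adjusted p = 0.428), a fold of 0.674, and 0.70 under PCN (SE 0.34, -0.06 to 1.46, adjusted p = 0.304), a fold of 1.62. Neither passed. In the authors' deposited table the log2 fold changes were -0.50 with an adjusted p of 0.521 and 0.63 with an adjusted p of 0.398. The PCN value was 0.40 without HFD Vehicle 23 and 0.38 without HFD Vehicle 23 and 50, and the diet value was -0.41 without HFD 4. HFD Vehicle 23 and HFD 4 are also the lowest libraries of their groups in enterocyte marker RNA, the part of which was not tested.

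Taken within libraries, a ratio added after seeing the data, 1.38, 0.941 and 1.26 Hnf4g reads were counted per Hnf4a read in Chow and 0.775, 1.01 and 0.940 in HFD. The ratio was 0.418, 0.927 and 1.09 in HFD Vehicle and 1.15, 1.27 and 1.0 in HFD PCN. Means were 1.20 ± 0.229 in Chow, 0.909 ± 0.122 in HFD, 0.811 ± 0.350 in HFD Vehicle and 1.14 ± 0.133 in HFD PCN (SD, n = 3 each). Chow and HFD overlapped on this ratio, as did HFD Vehicle and HFD PCN.

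Nr5a2 (ENSMUSG00000026398, chr1:136842571-136960448, minus strand) stood at 43.4, 40.7 and 44.9 CPM in Chow, 46.6, 31.7 and 33.5 CPM in HFD, 61.0, 46.6 and 41.5 CPM in HFD Vehicle and 36.2, 45.0 and 38.9 CPM in HFD PCN. All groups overlapped, and HFD Vehicle 23, the lowest library for Hnf4g, was the highest for Nr5a2. The fold change was 0.866 on the diet (0.663 to 1.13) and 0.799 under PCN (0.570 to 1.12).

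Ppara (ENSMUSG00000022383, chr15:85734983-85802819, plus strand), whose product drives fatty acid oxidation, stood at 74.4, 66.5 and 86.2 CPM in Chow, 65.0, 106 and 111 CPM in HFD, 77.5, 103 and 115 CPM in HFD Vehicle and 77.1, 101 and 106 CPM in HFD PCN. In each high-fat group 1 library lay within or below the Chow range and the other two above it. The fold change was 1.26 on the diet (0.920 to 1.72) and 0.961 under PCN (0.682 to 1.36).

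Ppard (ENSMUSG00000002250, chr17:28232754-28301469, plus strand) stood at 93.8, 91.1 and 78.5 CPM in Chow (mean 87.8 ± 8.15, SD, n = 3) and at 123, 177 and 103 CPM in HFD (134 ± 38.0, n = 3). It stood at 58.8, 122 and 88.3 CPM in HFD Vehicle and 67.3, 84.9 and 119 CPM in HFD PCN, both ranges spanning that of Chow. All HFD libraries were above all Chow libraries. The log2 fold change on the diet was 0.63 (SE 0.20, 95% interval 0.18 to 1.08, edgeR adjusted p = 0.362), a fold of 1.55, and it did not pass. In the authors' deposited table it was 0.53 with an adjusted p of 0.467. Without HFD 30, the highest library, it was 0.38. Under PCN the fold change was 1.0 (0.628 to 1.60), an interval that spans rises and falls of more than 1.5 times.

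None of the 9 receptors was called in HFD against Chow at an edgeR adjusted p under 0.05. In that comparison 10 of 15278 genes (0.0655%) were called, so that 0 of 9 shows nothing particular to receptors. DESeq2 and limma-voom also called 0 of the 9. At an unadjusted p under 0.05 there were 2, Hnf4g and Ppard, against 10.3% of all genes. The same 2 were those whose groups did not overlap, which held for 16.3% of all genes. The absolute log2 fold change was under 0.5 for 7 of 9 receptors and for 82.5% of all genes, and the medians of the signed values were 0.17 and 0.00. The median absolute value was 0.30 for the receptors and 0.23 for all genes tested. Over the 9 receptors the highest upper end of a 95% interval was a log2 value of 1.08, for Ppard, and the lowest lower end was -1.05, for Hnf4g.

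In HFD PCN against HFD Vehicle 0 of 9 receptors were called, again by edgeR, DESeq2 and limma-voom, where edgeR called 10 of 16110 genes (0.0621%). None had an unadjusted p under 0.05, against 17.9% of all genes. Groups did not overlap for 1 receptor, Hnf4g, and for 19.3% of all genes, with scaling within the comparison. The absolute log2 fold change was under 0.5 for 8 of 9 receptors and for 62% of all genes. The median absolute value was 0.17 for the receptors and 0.38 for all genes tested, whereas on the diet the receptors had the higher median. Neither pair of medians was matched for counts, and all 9 receptors were well counted. With library quality weights limma-voom called 4527 of 16110 genes, and without HFD Vehicle 55 edgeR called 3697. The number of receptors called was 0 in both settings. Whether 0 of 9 departs from the share of all genes called was not tested. In simulated counts with known changes, 52 of 100 genes changed by 1 on the log2 scale were recovered for the diet comparison. For the PCN comparison 32 of 100 were recovered, and at a change of 2 it was 94 of 100 in each. False calls numbered 13 for the diet comparison and 11 for the PCN comparison. In the measured counts under PCN, edgeR called 7 of 22 PXR target genes, whose median log2 fold change was 2.0. The shares recovered describe the simulated counts, and whether they hold for these libraries was not tested. Changes smaller than 1 on the log2 scale, as those of the receptors are, were not simulated. With 3 libraries a group, 0 called of 9 does not show that such changes are absent.

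The 2 remaining comparisons share libraries with the main ones, so their values are given side by side and not as separate evidence. In HFD Vehicle against HFD, edgeR called 0 of 16255 genes (0%), with 5.86% at an unadjusted p under 0.05 and 32 called by DESeq2; limma-voom called 0. None of the 9 receptors was called or had an unadjusted p under 0.05, and none had groups that did not overlap (9.92% of all genes). The absolute log2 fold change was under 0.5 for 8 of 9, and for 75.4% of all genes. Ppard had the largest absolute value, a log2 fold change of -0.60 (SE 0.32, 95% interval -1.31 to 0.11). In HFD PCN against HFD, edgeR called 52 of 15982 genes (0.325%) and none of the receptors, as did DESeq2 and limma-voom. An unadjusted p under 0.05 was found for 2 receptors and for 18.2% of all genes. These were Hnf4g, at 0.66 on the log2 scale (SE 0.25, adjusted p = 0.204 in edgeR), and Ppard, at -0.58 (SE 0.25, adjusted p = 0.249). Hnf4g was also the receptor whose groups did not overlap there, as for 23.2% of all genes. Of the 9, 7 had an absolute log2 fold change under 0.5, as had 73.6% of all genes. Nr1i2 stood at a log2 fold change of -0.15 in the first (-0.65 to 0.35) and -0.02 in the second (-0.43 to 0.39).

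PXR target genes were called in both main comparisons. All 22 genes of a list of PXR targets were tested. On the diet 4 fell and 0 rose (lower calls made up 0.0589% of all genes): Cyp2c55, Cyp2c29 and Cyp2c66, which are cytochrome P450 genes, and the glutathione transferase Gstm1. The median log2 fold change of the list was -0.59, against 0.00 for all genes. Its values were negative for 17 genes and positive for 5, up to 0.78, where 50.5% of all genes were positive. Groups did not overlap for 9, all lower, against 16.3% of all genes in either direction. Under PCN 7 rose and 0 fell (higher calls made up 0.0497% of all genes): the same 4, the carboxylesterases Ces2a and Ces2b, and the epoxide hydrolase Ephx1. The median was 2.0, against -0.01 for all genes, and 21 of 22 had groups that did not overlap, where 9.84% of all genes were higher without overlap. Against untreated HFD mice 10 of 22 rose under PCN (0.244% of all genes), with a median of 2.05, and in HFD Vehicle against HFD none was called by edgeR or limma-voom and 1 by DESeq2 (4 at an unadjusted p under 0.05), with a median of 0.03. The count of 7 rests on single libraries: it was 0 without HFD PCN 11, 0 without HFD Vehicle 50, 2 without HFD Vehicle 23, 4 without HFD PCN 5, 0 without HFD Vehicle 23 and 50 and 19 without HFD Vehicle 55. The count of 4 on the diet was 2 without any one of Chow 8, Chow 17, Chow 19 or HFD 30, and the count of 10 was 0 without HFD 4 and 6 without HFD 30. The list was drawn with earlier results of these data known, so its direction is not independent evidence.

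Cyp2c55 stood at 70.6, 56.6 and 55.1 CPM in Chow, 6.69, 7.17 and 6.99 CPM in HFD, 2.97, 5.68 and 7.73 CPM in HFD Vehicle and 614, 430 and 98.9 CPM in HFD PCN. Chow and HFD were far apart, and every HFD PCN library was above every other library. Its log2 fold change was -3.10 on the diet (SE 0.17, edgeR adjusted p = 2.61e-05) and 6.18 under PCN (SE 0.74, adjusted p = 0.0432). Cyp2c29 stood at 115, 121 and 156 CPM in Chow, 3.69, 7.17 and 10.2 CPM in HFD, 17.3, 24.6 and 22.2 CPM in HFD Vehicle and 1515, 927 and 307 CPM in HFD PCN. Its values were -4.12 (SE 0.29, adjusted p = 0.000421) and 5.42 (SE 0.58, adjusted p = 0.0227). Cyp2c66 changed by -1.15 (SE 0.14, adjusted p = 0.0199) and 2.84 (SE 0.38, adjusted p = 0.0432), and Gstm1 by -1.07 (SE 0.15, adjusted p = 0.0399) and 3.25 (SE 0.44, adjusted p = 0.0494). Ces2a rose by 3.83 under PCN (SE 0.38, adjusted p = 0.0165), Ces2b by 4.84 (SE 0.58, adjusted p = 0.0432) and Ephx1 by 3.77 (SE 0.43, adjusted p = 0.0255). The Cyp2c genes are close paralogs, whose reads the counting may have split.

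Cyp3a11, the main PXR-inducible P450 of mouse liver and gut, stood at 2356, 1860 and 1532 CPM in Chow, 406, 729 and 530 CPM in HFD, 164, 517 and 1155 CPM in HFD Vehicle and 11919, 9276 and 4653 CPM in HFD PCN. Groups did not overlap in either main comparison. Its log2 fold change was -1.77 (SE 0.28, 95% interval -2.39 to -1.16) on the diet and 3.83 (SE 0.71, 2.24 to 5.41) under PCN. Neither passed in edgeR, with adjusted p = 0.0611 and 0.2. DESeq2 gave 1.65e-09 and 0.000268, and in the authors' deposited table the adjusted p was 2.05e-08 and 1.12e-08 for log2 fold changes of -1.46 and 2.80. Abcb1a, the P-glycoprotein exporter, stood at 282, 286 and 371 CPM in Chow and 151, 196 and 373 CPM in HFD. It stood at 329, 387 and 470 CPM in HFD Vehicle and 1230, 1116 and 657 CPM in HFD PCN, without overlap, and the PCN comparison gave 1.34 on the log2 scale (SE 0.31, adjusted p = 0.231 in edgeR).

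**Figure D3:**
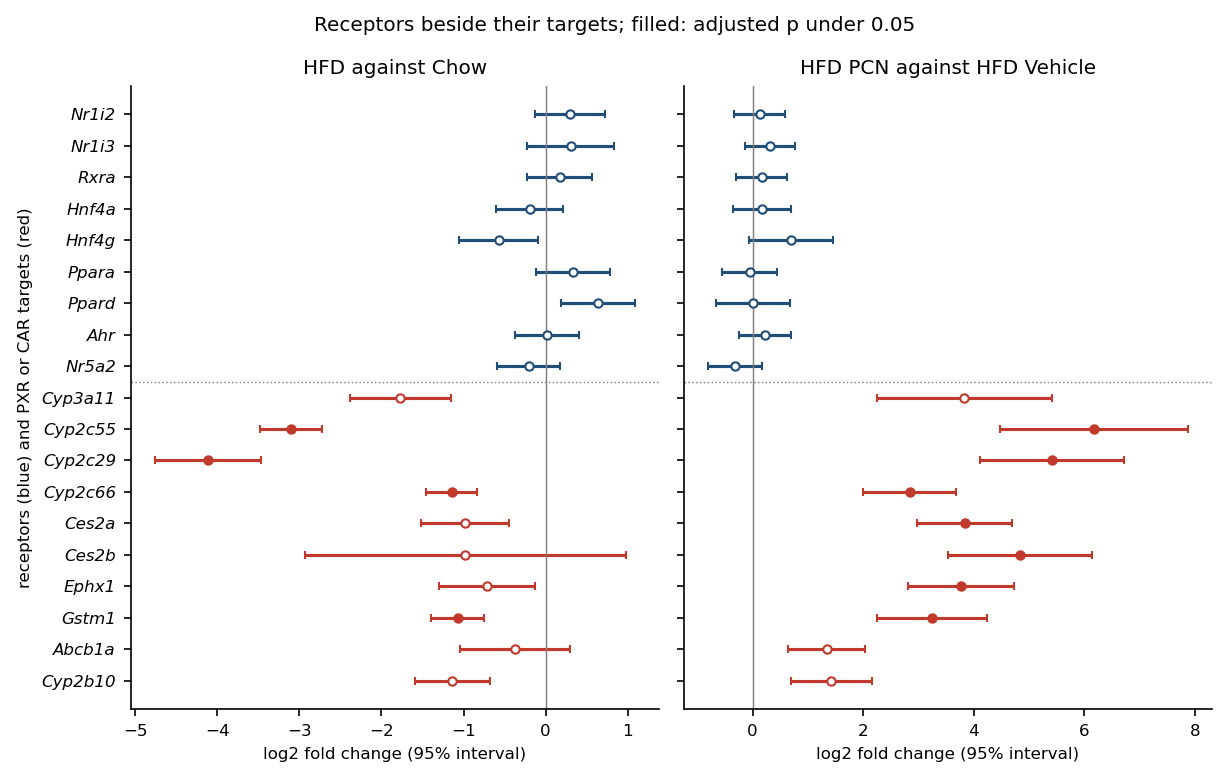
Log2 fold changes (x axes, of different range) with 95% intervals for the 9 receptors in blue and 10 PXR or CAR target genes in red, in HFD against Chow (left) and HFD PCN against HFD Vehicle (right); filled points passed at an edgeR adjusted p under 0.05. The receptors lie between -0.57 and 0.63 on the left and between -0.32 and 0.70 on the right, while targets reach -4.12 and 6.18. Cyp2c66, Ces2b, Ephx1 and Gstm1 are shown because they were called in these data, so the contrast is in part one of selection. All 22 listed PXR targets ran from -4.12 to 0.78 on the diet and from 0.40 to 6.18 under PCN.

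Dividing target reads by receptor reads within a library removes the scaling between libraries. Per Nr1i2 read, 13.9, 16.2 and 9.72 Cyp3a11 reads were counted in Chow and 2.58, 3.45 and 3.14 in HFD. The numbers were 0.992, 3.03 and 7.6 in HFD Vehicle and 73.2, 45.8 and 27.6 in HFD PCN. Means were 13.2 ± 3.26, 3.05 ± 0.443, 3.87 ± 3.38 and 48.9 ± 22.9 (SD, n = 3 each), and HFD PCN lay above all other libraries. Cyp2c55 gave 0.419 ± 0.071 reads per Nr1i2 read in Chow, 0.0392 ± 0.00465 in HFD, 0.0340 ± 0.0165 in HFD Vehicle and 2.16 ± 1.59 in HFD PCN. No test was run on these ratios.

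**Figure D4:**
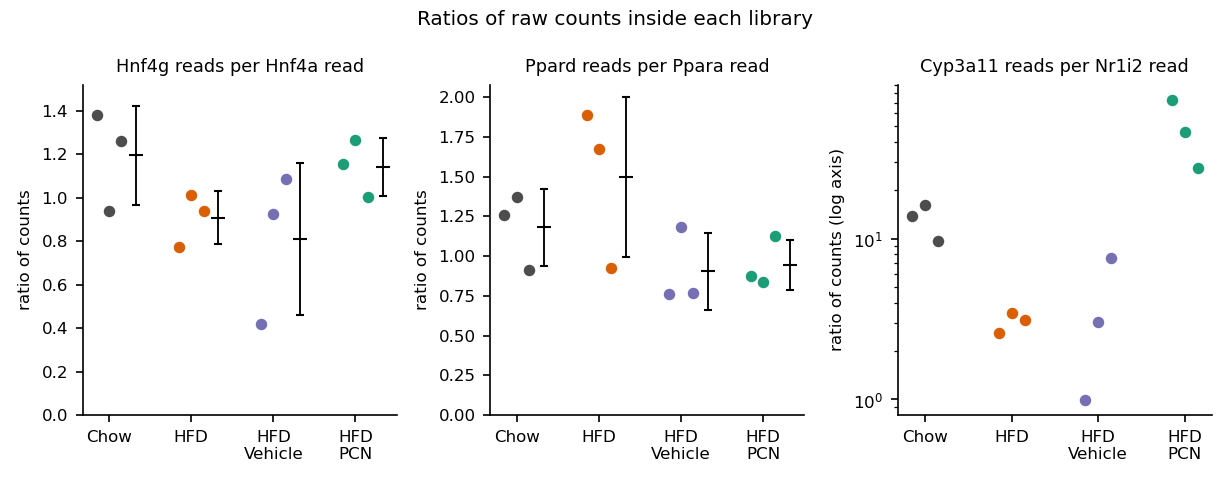
Ratios of raw counts inside each library for the 4 groups; points are libraries, black marks are mean ± SD, and the right panel has a log axis and no error bars. Hnf4g per Hnf4a and Ppard per Ppara overlap between groups in both main comparisons, whereas Cyp3a11 per Nr1i2 runs from 0.992 to 16.2 outside HFD PCN and from 27.6 to 73.2 in it.

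CAR targets were fewer: 5 of 9 listed genes passed the filter, and edgeR called 0 in either main comparison. An unadjusted p under 0.05 was found for 3 and 2 of them, against 10.3% and 17.9% of all genes. On the diet DESeq2, limma-voom with quality weights and edgeR without the filter each called 1 CAR target. Under PCN DESeq2 called 2, quality weights 5, and edgeR 2 without the filter and 2 without HFD Vehicle 55. Among all genes, quality weights called 4527 of 16110 there, and edgeR called 3697 without HFD Vehicle 55. Against untreated HFD mice edgeR called 1 CAR target under PCN. Por and Ugt1a1 of this list are also listed PXR targets, so these calls may not be separate from those of PXR targets. Cyp2b10, the classical CAR target, which PXR also regulates, stood at 440.5, 348 and 498 CPM in Chow, 154, 224 and 200 CPM in HFD, 157, 240 and 331 CPM in HFD Vehicle and 807, 655 and 488 CPM in HFD PCN. Its log2 fold change was -1.14 on the diet (SE 0.21, edgeR adjusted p = 0.118) and 1.42 under PCN (SE 0.33, adjusted p = 0.231), and groups did not overlap in either. Cyp2b10 reads per Nr1i3 read were 6.55 ± 1.13 in Chow, 2.44 ± 0.341 in HFD, 3.87 ± 1.01 in HFD Vehicle and 8.53 ± 2.68 in HFD PCN (SD, n = 3 each).

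Of 27 listed targets of PPARα and PPARδ, 24 were tested and edgeR called 0 in both main comparisons. Those with an unadjusted p under 0.05 were 6 on the diet and 4 under PCN, against 10.3% and 17.9% of all genes. The median log2 fold change of the list was 0.03 on the diet. It was 0.59 under PCN, where 22 of 24 values were positive against 49% of all genes, and -0.16 in HFD Vehicle against HFD, where 20 of 24 were negative. The 11 enterocyte markers were likewise all positive under PCN, with a median of 0.48, and 9 of them negative in HFD Vehicle against HFD. The part of enterocyte RNA in the PPAR list was not tested. Cpt1a, which admits fatty acids to mitochondria, differed on the log2 scale by 0.07 (SE 0.14) on the diet and 0.65 (SE 0.29) under PCN. Pdk4, which restrains glucose oxidation, had -0.59 (SE 0.24) and 0.84 (SE 0.42), and Angptl4, an inhibitor of lipoprotein lipase, 0.40 (SE 0.46) and 0.44 (SE 0.51). Leaving out HFD Vehicle 55 raised the number of PPAR targets called under PCN from 0 to 10, and quality weights gave 9, DESeq2 0 and no filter 2. Without HFD Vehicle 55 edgeR called 3697 genes in all, and quality weights called 4527 of 16110, so calls rose far beyond this list. On the diet DESeq2 called 1, and edgeR called 2 without the filter and 2 without HFD 38.

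The AHR list had 7 of 10 genes tested and 0 called by edgeR in both main comparisons. In each, 3 had an unadjusted p under 0.05, against 10.3% of all genes on the diet and 17.9% under PCN. Of the list, DESeq2 called 1 in each and edgeR without the filter 2 in each. Under PCN 3 were called with quality weights and 3 without HFD Vehicle 55, settings that called 4527 and 3697 genes in all. Gsta1 of this list is also a listed PXR target, so these calls may not be separate from those of PXR targets. Cyp1a1, the classical AHR target, was too low to be tested, with 0 to 6.53 CPM per library and its highest value in Chow 8. On the log2 scale Tiparp, a feedback inhibitor of AHR, differed by 0.01 (SE 0.15) on the diet and 0.19 (SE 0.23) under PCN, and Nqo1, a quinone reductase, -0.14 (SE 0.19) and 0.68 (SE 0.30). Ahrr, the AHR repressor, was chosen after its values were seen: it had a mean of 3.05 CPM in Chow and 1.01 CPM in HFD, a difference of -1.56 on the log2 scale (SE 0.35, adjusted p = 0.195 in edgeR) without overlap between groups.

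The 16 listed HNF4 targets of the enterocyte were all tested, and edgeR called 0 in both main comparisons. On the diet 0 had an unadjusted p under 0.05 and under PCN 1, against 10.3% and 17.9% of all genes. The medians of the list were 0.17 and 0.23. Under PCN quality weights gave 3 and leaving out HFD Vehicle 55 gave 1, settings that called 4527 and 3697 genes in all. Apoa4, a chylomicron apolipoprotein, differed by 0.12 (SE 0.45) on the log2 scale on the diet and by 0.26 (SE 0.59) under PCN. Apob, the structural protein of chylomicrons, had -0.25 (SE 0.37) and 0.71 (SE 0.54), and Mttp, which loads lipid onto it, -0.13 (SE 0.25) and 0.66 (SE 0.35). Apob stood at 5795 CPM in HFD 4 and 2905 CPM in HFD Vehicle 23, the libraries low in Hnf4g, and at 6896 to 14013 CPM elsewhere. Of 9 LRH-1 targets 5 were tested and edgeR called 0 in both comparisons, with 1 at an unadjusted p under 0.05 in each and medians of 0.27 and 0.28. Without the filter 1 was called on the diet, and under PCN quality weights gave 2 and leaving out HFD Vehicle 55 gave 1. Nr0b2, the corepressor SHP and an LRH-1 target, was at only 1.03 to 9.39 CPM, with log2 fold changes of 1.36 (SE 0.44, edgeR adjusted p = 0.366) on the diet and -0.64 (SE 0.53, adjusted p = 0.505) under PCN.

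Among the 41 other nuclear receptor genes 32 were tested, and edgeR called 0 in each main comparison. Of the 32, 3 had an unadjusted p under 0.05 on the diet and 7 under PCN, against 10.3% and 17.9% of all genes. The medians of the list were -0.01 and -0.10. On the diet the smallest p among positive values belonged to Esrra, a regulator of mitochondrial genes, and Nr0b2. Esrra had a mean of 117 CPM in Chow and 196 CPM in HFD, a difference of 0.74 on the log2 scale (SE 0.21, adjusted p = 0.302 in edgeR). Among negative values they belonged to Nr3c1, the glucocorticoid receptor, with -0.46 (SE 0.17, adjusted p = 0.418), and Nr6a1, with -0.35 (SE 0.17, adjusted p = 0.486). Under PCN they belonged to Pparg, the receptor of adipocyte differentiation, with 1.23 (SE 0.32, adjusted p = 0.231), and Nr1h4, the bile acid receptor FXR, with 0.57 (SE 0.25, adjusted p = 0.275). Negative values were led by Nr4a1, an immediate early gene, with -4.54 (SE 0.95, adjusted p = 0.231), and Nr2f6, with -0.95 (SE 0.27, adjusted p = 0.231). HFD Vehicle 23 and 50 had 31.9 and 28.8 CPM of Nr4a1 and the other 10 libraries 0.698 to 2.54 CPM, so its value rests on those 2 libraries. Without both of them it was -0.98. Pparg averaged 35.6 ± 9.56 CPM in HFD PCN against 15.3 ± 5.65 CPM in HFD Vehicle (SD, n = 3 each, scaled within the comparison) and did not overlap between these groups, unlike Ppara and Ppard.

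The 18 coregulators and receptor partners were all tested, and edgeR called 0 in both main comparisons. At an unadjusted p under 0.05 there were 2 and 4, against 10.3% and 17.9% of all genes. The medians of the list were -0.15 and -0.10. Hsp90ab1, the chaperone that holds AHR and several receptors in the cytosol and was chosen after its values were seen, had 2195, 1490 and 365 CPM in the HFD Vehicle libraries 23, 50 and 55. Its range was 316 to 576 CPM in HFD PCN and 195 to 640 CPM in Chow and HFD. HFD Vehicle 55 lay within the HFD PCN range, so that the difference rests on HFD Vehicle 23 and 50. Its log2 fold change under PCN was -1.69 (SE 0.57, edgeR adjusted p = 0.24). The heat shock list ran with it, with all 6 tested genes negative under PCN and a median of -2.42. Hsp90aa1, of the same family and likewise chosen after its values were seen, ranged from 121 to 224 CPM in HFD PCN. HFD Vehicle 55 had 114 CPM of it, whereas HFD Vehicle 23 and 50 had 1814 and 1479 CPM.

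Across the 12 libraries the genes whose log2 CPM ran most like each receptor were listed among 12110 genes, as a description without a test, since all points share the same libraries, depths and groups. Hnf4g ran most like Tfg (Pearson r = 0.98), Ralgps2 (0.97) and Tbc1d8b (0.97). Nr5a2 ran most like Hnrnpa1 (0.96), Hnrnpdl (0.94) and Eml5 (0.93), and Ppard like Trp53inp2 (0.96), Tmem79 (0.94) and Dhrs11 (0.93). The first gene was Zfp800 for Hnf4a (0.94), Trim15 for Rxra (0.93), Plxnb2 for Nr1i3 (0.91), Copg1 for Ahr (0.89), Pcnx for Nr1i2 (0.88) and Icosl for Ppara (0.86). None of these first genes is one of the 22 listed PXR targets. Those are few among the 12110 genes, so their absence shows nothing particular to them.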

How the data were processed

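RNA-seq of 12 duodenum libraries was used. Raw counts per gene came from 2 deposited tables, one with the Chow and HFD libraries and one with the injected mice. The submitters' processing notes name GRCm38 (mm10), HISAT2, HTSeq and DESeq2, with no versions. Annotation release, strand setting and filters are not given in the sources used here. Header names of the annotation columns were shifted by 1 column and were read by content. The authors' comparison columns (log2 fold change, p-value) were used only where named as deposited.

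Each comparison was fitted on its 6 libraries with edgeR 4.0.16 (R 4.3.3; filterByExpr, TMM, robust quasi-likelihood F-test, two-sided), with Benjamini-Hochberg adjustment over all genes tested and calls at an adjusted p under 0.05. The SE is the log2 fold change over the square root of F, and intervals are 95% t intervals. CPM of single libraries used TMM over the 12 libraries on the 26121 shared genes. Replicates differed by more than sampling noise (chi-square per degree of freedom 30.5 to 213). Alternatives used DESeq2 1.42.0, limma-voom (limma 3.58.1), other scalings and filters, and left out libraries. The test was checked on simulated counts.

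Named were the 9 receptors, 17 of 18 set genes (the other is not reported here), list genes called in a main comparison, and in the nuclear receptor list the 2 genes of smallest p in each direction. For the most alike genes, those with a mean of at least 20 counts were compared. The members and lists were chosen with earlier results of these data known.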

Additional observations from a re-analysis of the deposited data

How the results depend on the processing

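Under any alternative of the 4 comparisons, 0 of the 9 receptors were called. Whether 3 libraries a group are enough to detect changes of the receptors' size was not tested. Alternatives were chosen with the tests, except the principal transcript length and the Hnf4g to Hnf4a ratio, which were added after seeing the data. The other ratios within libraries were likewise not among the results set out beforehand. No label sets HFD Vehicle 23 and 50 apart from HFD Vehicle 55, whereas their heat shock and Nr4a1 values do. No paired analysis was possible because the groups share no replicate numbers. The cause was not tested for any of the following differences.

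In HFD against Chow the number of all genes called, 10, was 134 with DESeq2, 351 without a filter on low counts, 55 with limma-voom quality weights, 2 with all 12 libraries in one fit and 4 to 63 with a library left out. The PXR targets called, 4, were 7 with DESeq2, 7 without the filter, 1 with all 12 libraries and 2 to 6 with a library left out. In HFD PCN against HFD Vehicle the 10 genes called were 339 with DESeq2, 843 without the filter, 4527 with quality weights, 34 with all 12 libraries, 4 with library totals, 2 without HFD Vehicle 23 and 50 and 0 to 3697 with a library left out. The PXR targets called, 7, were 18 with DESeq2, 15 without the filter, 21 with quality weights, 2 with library totals, 0 without HFD Vehicle 23 and 50 and 0 to 19 with a library left out. In HFD Vehicle against HFD the 0 genes called were 32 with DESeq2, 66 with quality weights, 1 without the filter, 1 with all 12 libraries, 6 without HFD Vehicle 23 and 50 and 0 to 260 with a library left out, and the 0 PXR targets were 1 with DESeq2 and 2 with quality weights. In HFD PCN against HFD the 52 genes called were 401 with DESeq2, 746 without the filter, 420 with quality weights, 29 with all 12 libraries and 1 to 452 with a library left out, and the 10 PXR targets were 17 with DESeq2, 16 with quality weights and 0 to 14 with a library left out.

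The log2 fold changes below turned sign, among them values that were not near 0 under PCN: Apob (0.71), Nr0b2 (-0.64) and Angptl4 (0.44). In HFD against Chow, library totals gave -0.13 for Ahr, -0.087 for Cpt1a and -0.14 for Tiparp, and all 12 libraries gave -0.0012 for Ahr and -0.0040 for Tiparp. Limma-voom gave -0.16 for Apoa4, 0.030 for Pparg and 0.0094 for Nr1h4, its quality weights -0.023 for Apoa4 and 0.053 for Pparg, and no filter 0.010 for Nr1h4. With a library left out the ranges were -0.010 to 0.29 for Rxra, -0.079 to 0.16 for Ahr, -0.072 to 0.076 for Tiparp, -0.26 to 0.50 for Apoa4, -0.47 to 0.023 for Apob, -0.22 to 0.0062 for Mttp, -0.17 to 0.14 for Pparg and -0.20 to 0.18 for Nr1h4. In HFD PCN against HFD Vehicle, quality weights gave -0.42 for Ppard and -0.076 for Nr6a1. Without HFD Vehicle 23 and 50 the values were -0.57 for Angptl4, -0.0084 for Tiparp, -0.53 for Apoa4, -0.12 for Apob and 0.51 for Nr0b2. With a library left out they ran from -0.20 to 0.075 for Ppara, -0.23 to 0.30 for Ppard, -0.0084 to 0.30 for Tiparp, -0.19 to 0.91 for Apoa4, -0.97 to 0.40 for Nr0b2 and -0.0017 to 0.36 for Nr6a1. In HFD Vehicle against HFD, Hnf4g was 0.14 with quality weights and 0.28 without HFD Vehicle 23 and 50, Ppara was -0.031 with library totals, and Ahr was -0.00080 with limma-voom, -0.10 with library totals, -0.014 without the filter and -0.12 without HFD Vehicle 23 and 50. With a library left out the ranges were -0.24 to 0.25 for Hnf4g, -0.17 to 0.19 for Ppara and -0.12 to 0.11 for Ahr. In HFD PCN against HFD, Ppara was 0.0099 with DESeq2, 0.042 with limma-voom, 0.0050 without the filter and 0.0046 with all 12 libraries. With a library left out the ranges were -0.12 to 0.12 for Nr1i2, -0.26 to 0.19 for Nr1i3, -0.23 to 0.084 for Rxra and -0.20 to 0.14 for Ppara.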
